A study of Homo sapiens with 6 samples.

Results

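The metalloproteinase and inhibitor genes were the 67 protein coding genes, of 20163 in the GENCODE annotation on GRCh37, whose symbols mark them as matrix metalloproteinases (MMP, 24 genes), disintegrin metalloproteinases (ADAM, 20 genes), ADAM proteases with thrombospondin repeats (ADAMTS, 19 genes) or tissue inhibitors of metalloproteinases (TIMP, 4 genes). They were chosen by symbol alone, so MMP24OS, a gene named for its position opposite MMP24, was counted among the MMP genes. MMPs are zinc proteases that are made as inactive pro-forms and cut extracellular matrix, and 6 of them are held at the cell surface as membrane-type MMPs. Many ADAMs shed the outer parts of membrane proteins, ADAMTS proteases process collagens and proteoglycans outside the cell, and TIMPs bind the active sites of these enzymes. MMP-2, the gelatinase that was tagged in this study, is itself held in check by TIMPs and is cut to its active form at the cell surface by MMP14 together with TIMP2.

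The question here was at which of these genes HA-tagged MMP-2 was found on chromatin, and whether H3K4me3, the trimethylation of histone H3 at lysine 4 that marks active promoters, was present there. Native ChIP-Seq, in which nucleosomes released by micrococcal nuclease are immunoprecipitated without crosslinking, was done with the osteosarcoma line U2OS, which is of human origin, harvested 2 days past confluence. The HA antibody was used on 3 replicates of the ProMMP2-3xHA line (genotype Pro-MMP2-3XHA stable), which the study describes as independent biological experiments, and 1 list of merged HA peaks had been called on the pooled replicates. The H3K4me3 antibody was used on 1 library of ProMMP2-3xHA cells and 1 library of wild type (WT) cells. The ProMMP2-3xHA line was made to express the full-length pro-form with a C-terminal 3xHA tag constitutively, and untagged endogenous MMP-2 was present in both lines. No separate list of the HA sample of WT cells was used here, and the list names give an HA control immunoprecipitation as the control of each HA replicate. The 3 HA replicates had a recovered median of 50, 44 and 41 fragments at a peak summit, and no depth could be recovered for the merged HA and H3K4me3 lists, which carry no values. A gene was counted as positive when a peak lay within 1 kb of any of its transcription start sites (TSSs).

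The bases just before the canonical TSS are shown for genes with HA peaks, because the members with HA and those without any mark had different median base compositions. All sequences are from GRCh37 and run 5′ to 3′ on the strand of the gene, and CG dinucleotides are in capitals. TIMP3 (chr22:33197491-33197690, plus strand) and ADAM17 (chr2:9695978-9696027, minus strand, the 50 bases that held no UTR of another transcript) had HA peaks in every replicate, and TIMP1 (chrX:47441635-47441806, plus strand) had them in 2 replicates.
TIMP3: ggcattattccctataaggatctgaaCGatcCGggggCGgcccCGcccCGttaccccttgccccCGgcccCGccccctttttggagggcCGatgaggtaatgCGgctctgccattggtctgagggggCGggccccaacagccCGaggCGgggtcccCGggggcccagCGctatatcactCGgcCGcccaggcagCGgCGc
ADAM17: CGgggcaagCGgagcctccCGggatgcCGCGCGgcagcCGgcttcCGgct
TIMP1: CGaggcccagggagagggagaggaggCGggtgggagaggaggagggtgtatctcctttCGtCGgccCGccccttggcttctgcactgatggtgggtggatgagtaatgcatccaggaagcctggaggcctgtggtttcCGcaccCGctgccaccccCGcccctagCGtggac

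The 200 bases of TIMP3 held 18 CG dinucleotides, the 172 bases of TIMP1 held 9, and the 50 bases of ADAM17 held 8. Over the 200 bases before each TSS, the median was 18 CG dinucleotides for the members with merged HA. It was 20 for the 26 members with H3K4me3 and no merged HA, so a high count was not particular to members with HA. For the members with neither HA nor H3K4me3 it was 6, and for all protein coding genes 15.

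The merged HA list placed tagged MMP-2 at the TSSs of 9 of the 67 genes, namely ADAM10, ADAM17, ADAM19, ADAM22, ADAMTS3, MMP14, MMP16, TIMP1 and TIMP3. This was 13.4% of the members (95% Clopper-Pearson interval 6.33 to 24), where 31.6% of all protein coding genes had a merged HA peak. The members with an HA peak numbered 6, 8 and 11 in the 3 replicates, on average 8.33 ± 2.52 (SD, n = 3). The shares of all genes in these replicates were 23.3, 31.4 and 32.1%. The member share was therefore below the share of all genes in each replicate, with means of 12.4 ± 3.76% and 28.9 ± 4.9% (SD, n = 3). An HA peak of every replicate was present at 3 members (4.48%) and at 18.6% of all genes, and leaving out replicate 1 or replicate 2 gave 5 members with a peak in both of the others. A peak in the merged list or in any replicate was present at 14 members (20.9%) and at 39.8% of all genes. The intervals cover counting error only, and the genes are not independent replicates.

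The share of members with H3K4me3 was also below that of protein coding genes in general. H3K4me3 was present at the TSSs of 30 members in ProMMP2-3xHA cells (44.8%, interval 32.6 to 57.4) against 62.6% of all genes, and at 35 members in WT cells (52.2%, interval 39.7 to 64.6) against 66.3%. Neither H3K4me3 list reached the TSSs of 32 members (47.8%), against 33.5% of all genes. All 9 members with merged HA were among the 30 with H3K4me3 in the same cells, a share of 30% (interval 14.7 to 49.4) where 49.9% of all genes with H3K4me3 had merged HA. None of the 37 members without H3K4me3 in ProMMP2-3xHA cells had merged HA, which allows a share of up to 9.49%, and 1.05% of all genes without H3K4me3 had it.

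The counts of each family were as follows. Of all genes, 62.6% had H3K4me3 in ProMMP2-3xHA cells, 66.3% had it in WT cells and 31.6% had merged HA. Of the 24 MMP genes, 7 had H3K4me3 in each cell line and 2 had merged HA, and both of the latter were membrane-type MMPs. Among the 6 membrane-type MMPs, 5 had H3K4me3 in both lists, whereas none of the 3 collagenases and none of the 8 stromelysins, matrilysins and related MMPs had H3K4me3 or HA at a TSS in any list. Of the 20 ADAM genes, 9 had H3K4me3 in ProMMP2-3xHA cells, 10 had it in WT cells and 4 had merged HA. The 19 ADAMTS genes had the most H3K4me3 in WT cells by number, with 15 genes against 11 in ProMMP2-3xHA cells, and only ADAMTS3 had merged HA. Of the 4 inhibitors, TIMP1, TIMP2 and TIMP3 had H3K4me3 in both lists, and TIMP1 and TIMP3 had merged HA. In WT cells the shares of ADAMTS and TIMP genes with H3K4me3 lay above that of all genes, and those of MMP and ADAM genes lay below it. In ProMMP2-3xHA cells the share of TIMP genes lay above that of all genes, and those of the MMP, ADAM and ADAMTS genes lay below it. No test was made between families, whose members were few.

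**Figure D1:**
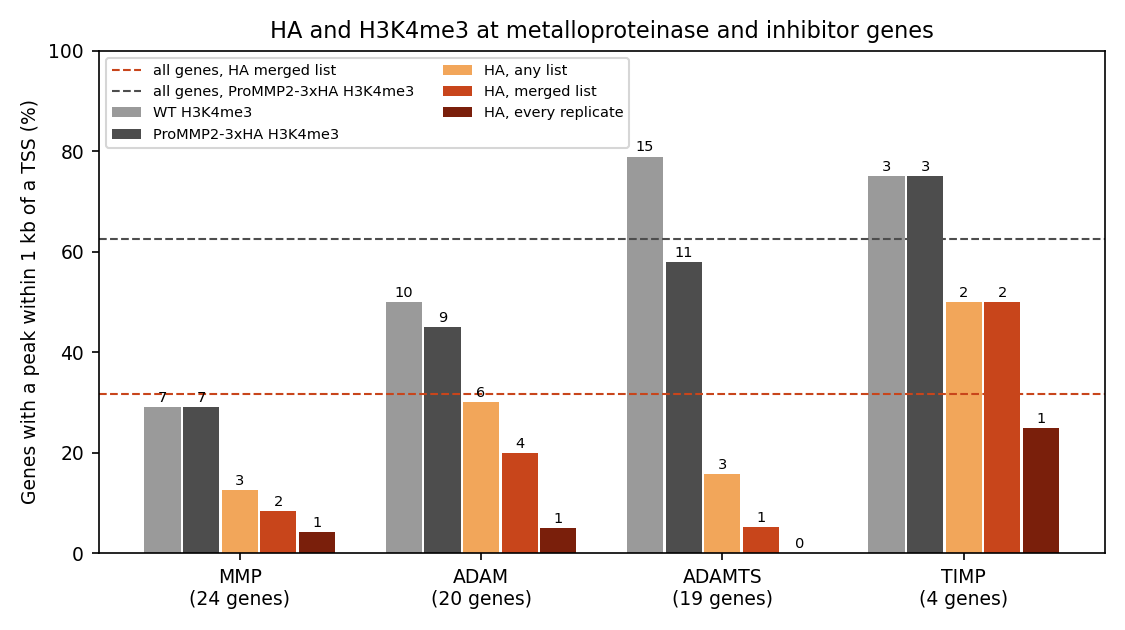
Percentage of the genes of each family (horizontal axis) with a peak within 1 kb of a TSS in the H3K4me3 and HA lists (bars, with the number of genes above each bar), and dashed lines for all protein coding genes. The ADAMTS bars for H3K4me3 stand at 15 and 11 genes while their merged HA bar stands at 1, and the merged HA bars of the MMP, ADAM and ADAMTS families lie below the line of all genes at 31.6%.

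HA peaks were found in all 3 replicates at ADAM17, TIMP3 and MMP16. At a stricter q-value of 0.01 this held for 2 members, as the MMP16 peak of replicate 1 had a −log10 q of 1.78. ADAM17, the protease that sheds tumor necrosis factor from the cell surface, had fold enrichments over the local control background of 5.61, 8.78 and 7.19 in replicates 1, 2 and 3, on average 7.19 ± 1.59 (SD, n = 3). These placed ADAM17 at percentiles 64.7, 86.6 and 85.1 among all genes with an HA peak in the same replicate. Its merged peak spanned 787 bp at chr2:9695583-9696369 and covered the canonical TSS. Each replicate had a summit on both sides of that TSS, at 243 bp upstream and 189 bp downstream in replicate 1, 278 bp upstream and 239 bp downstream in replicate 2, and 259 bp upstream and 216 bp downstream in replicate 3. The strongest summit lay downstream in replicate 1 and upstream in replicates 2 and 3. The recovered number of fragments at these strongest summits was 43, 60 and 49.

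TIMP3, the inhibitor that is bound to the extracellular matrix and also blocks ADAM17, had fold enrichments of 6.09, 7.81 and 6.11, a mean of 6.67 ± 0.99 (SD, n = 3), with 47, 63 and 52 fragments. Its merged peak spanned 456 bp at chr22:33197627-33198082, which covered the TSS and overlapped the end of the bases printed above, and its summits lay 35, 149 and 141 bp downstream of the TSS in the 5′ UTR of exon 1. MMP16, the membrane-type enzyme also called MT3-MMP, had the lowest values of the 3, with fold enrichments of 3.79, 4.54 and 4.33, a mean of 4.22 ± 0.385 (SD, n = 3), and 37, 35 and 49 fragments. These were at percentiles 11.4, 25.9 and 29.5 of all genes with an HA peak. The MMP16 values lay below those of ADAM17 and TIMP3 in each replicate. MMP16 also had the widest H3K4me3 of all members in WT cells, with 6232 bp, and 3922 bp in ProMMP2-3xHA cells.

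The other 6 members with merged HA had a peak in 1 or 2 of the replicates. ADAM10, the sheddase of Notch receptors and of the amyloid precursor protein, had fold enrichments of 6.87 in replicate 2 and 4.47 in replicate 3. These summits lay 61 and 44 bp downstream of the TSS, and replicate 1 had no peak. Replicate 3 also had a weaker ADAM10 peak 496 bp upstream of the TSS, with a fold enrichment of 3.63. TIMP1, an inhibitor of most MMPs that also binds pro-MMP-9, had fold enrichments of 4.6 and 7.45 in replicates 1 and 2, with summits 114 and 106 bp downstream of the TSS in intron 1, and no peak in replicate 3. The 2 summits of TIMP1 were 8 bp apart, although the fold enrichments differed between the replicates. ADAM19, a sheddase of neuregulins, had 5.76 in replicate 1 and 5.05 in replicate 3, with summits 156 and 45 bp downstream. ADAM22, an ADAM that has lost its protease activity and serves as a receptor for the secreted protein LGI1, had 5 in replicate 1 and 5.26 in replicate 3, with summits 181 and 157 bp downstream. ADAM19 and ADAM22 thus had no peak in replicate 2, the replicate with the most summits called in the genome.

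ADAMTS3 and MMP14 were less even. ADAMTS3, a procollagen processing enzyme, had a fold enrichment of 4.62 in replicate 2 at 205 bp upstream of its TSS and of 3.87 in replicate 3 at 979 bp downstream, and the merged peak (chr4:73435076-73435264) overlapped the peak of replicate 2 only. The summit of replicate 2 held 88 fragments at the depth of the HA library, and the control background was 6 fragments at the depth of the control. The recovered ratio of HA to control depth in replicate 2 was 2.81, so these numbers are not on the same scale. They were the highest fragment number and background among the members' TSS peaks for which they were recovered. MMP14, the membrane-type enzyme (MT1-MMP) that activates pro-MMP-2, had peaks in replicate 2 only. They were 396 and 518 bp wide, with fold enrichments of 6.41 at 182 bp and 4.45 at 915 bp downstream of the TSS, and the region of the merged list, 808 bp wide, overlapped both peaks at chr14:23305906-23306713.

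A further 5 members had an HA peak at a TSS in 1 replicate and no merged peak. In replicate 3 the fold enrichments were 5.12 at ADAM9, 4.98 at MMP19, 4.29 at ADAMTS12 and 3.67 at ADAM15, and in replicate 2 it was 5.01 at ADAMTS10. The ADAM9 peak lay 57 bp downstream of its TSS and 206 bp from the TSS of the neighbouring gene TM2D2, so the list does not assign it to 1 of the genes. The ADAMTS10 peak lay in intron 13, 557 bp from an alternative TSS and 17963 bp from the canonical TSS, with no H3K4me3 within 1 kb. MMP19 was the only MMP outside the membrane-type group with an HA peak at a TSS.

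**Figure D2:**
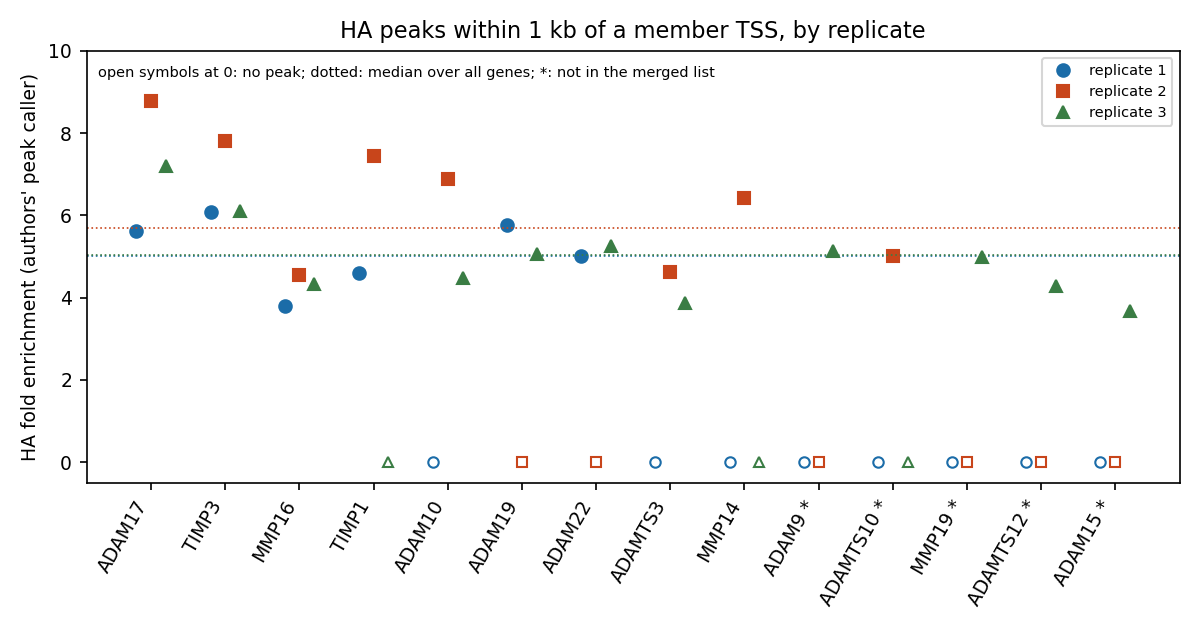
Fold enrichment of the strongest HA peak within 1 kb of a TSS (vertical axis, a ratio given by the authors' peak caller) for the 14 members with such a peak, with 1 symbol for each replicate and open symbols at 0 where no peak was called. Filled symbols of all 3 replicates are seen at ADAM17, TIMP3 and MMP16, and the 5 members marked with an asterisk have a single filled symbol.

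The fold enrichments of these peaks lay within the range of other genes. The median fold enrichment over the members with a peak was 5.3, 6.64 and 4.98 in replicates 1, 2 and 3, against 5, 5.68 and 5.03 over all genes with a peak. The means of these medians, 5.64 ± 0.879 and 5.24 ± 0.385 (SD, n = 3), differed by less than the SD of the member medians. The highest member value was 8.78, at ADAM17 in replicate 2, where the central 90% of all genes ran from 3.35 to 11.4.

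The HA summits measured here belong to peaks chosen for lying within 1 kb of a TSS, so their closeness to a TSS follows from that choice. No positions for all genes are given beside them. Measured to the nearest TSS of the gene, the strongest summits were downstream at 6 of 6 members in replicate 1, at 4 of 8 in replicate 2 and at 7 of 11 in replicate 3, with median positions 68, 8.5 and 44 bp downstream. The mean of these medians was 40.17 ± 29.93 bp (SD, n = 3), so their distance from the TSS itself was little larger than the spread between replicates. Measured to the canonical TSS only, the value was 92.5 bp. Among the strongest summits only, the most distant within the window were those of ADAMTS3 in replicate 3, ADAMTS12 in replicate 3 and, at its alternative TSS, ADAMTS10 in replicate 2. The weaker MMP14 peak of replicate 2 had its summit 915 bp downstream of the TSS.

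**Figure D3:**
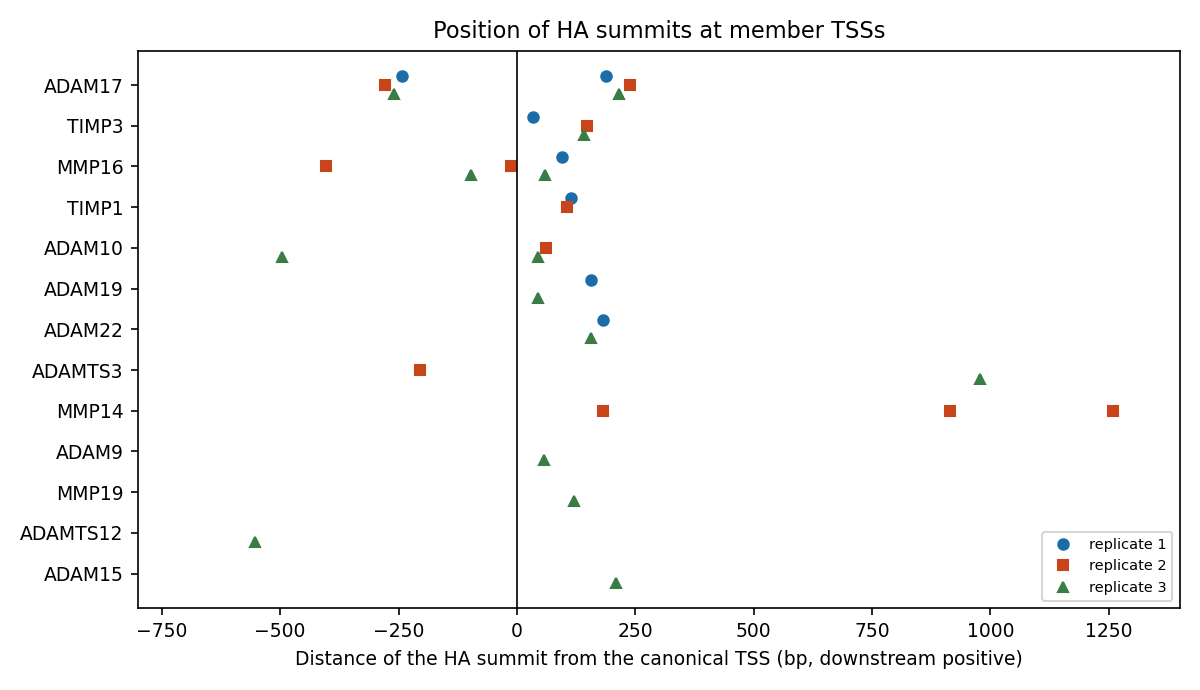
Distance in bp of each HA summit from the canonical TSS (horizontal axis, downstream positive) for 13 members, with 1 symbol for each replicate, including weaker summits of the same peaks, and without ADAMTS10, whose summit was 17963 bp away. The summits of ADAM17 form a pair on both sides of the TSS in every replicate, those of TIMP1, TIMP3, ADAM19 and ADAM22 are all downstream, and those of ADAMTS3 lie on opposite sides in replicates 2 and 3.

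MMP2, the gene of the tagged protein and the member that ProMMP2-3xHA cells carry as a tagged transgene beside the endogenous copies, had no HA peak at a TSS in any list. The merged HA peak nearest to any of its TSSs was 814582 bp away. Within its gene body, which begins upstream of the canonical TSS in the annotation, replicate 3 had a peak at chr16:55505781-55506046 with a fold enrichment of 3.83 and 43 fragments, 7189 bp upstream of the canonical TSS and without H3K4me3 within 1 kb. H3K4me3 at MMP2 spanned 1844 bp in ProMMP2-3xHA cells and 1658 bp in WT cells. The ratio of these widths was 1.11, at percentile 97.6 among all genes. MMP9, the other gelatinase, had neither HA nor H3K4me3 at its TSS or in its body, and the nearest regions were 73470 bp (merged HA), 12790 bp (ProMMP2-3xHA H3K4me3) and 12422 bp (WT H3K4me3) away.

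The inhibitors TIMP2 and TIMP4 had no HA peak at a TSS either. TIMP2, the inhibitor that bridges pro-MMP-2 to MMP14, had H3K4me3 of 1958 bp in ProMMP2-3xHA cells and 2316 bp in WT cells and no HA peak at its TSSs. Its intron 1 held single peaks of replicate 2 (fold enrichment 4.32) and replicate 3 (3.89), which were in different places and outside H3K4me3. TIMP4 had no HA or H3K4me3 in any list, and the nearest merged HA peak was 325626 bp from its TSS.

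The share with merged HA was higher in the classes of wider H3K4me3, among the members and among all genes. Of the 10 members whose H3K4me3 in ProMMP2-3xHA cells was under 1 kb in sum, none had merged HA (interval 0 to 30.8), against 24.4% of all genes in that class. Of the 11 members with 1 to 2 kb, 3 had it (27.3%, interval 6.02 to 61), against 51.8% of all genes. Of the 9 members with 2 kb or more, 6 had it (66.7%, interval 29.9 to 92.5), against 70.9%. The 6 were ADAM10, ADAM17, ADAM19, ADAMTS3, MMP14 and MMP16. The 3 in the widest class without merged HA were ADAM9 and ADAMTS12, which had a peak in replicate 3, and ADAMTS6, which had 3261 bp of H3K4me3 and no HA peak in any list.

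H3K4me3 was narrower in ProMMP2-3xHA cells than in WT cells at 28 of the 30 members that had it in both lists (93.3%), and it was narrower at 93.3% of the 12575 such genes in all. The median ratio of the widths was 0.778 for the members, with a range of 0.0774 to 1.41, and 0.777 for all genes. Each width came from 1 library, so these differences have no replicate check. At the 9 members with merged HA the median ratio was 0.801, with median widths of 2344 and 2720 bp, and at the other 21 members it was 0.707, with 1005 and 1653 bp. The same division of all genes gave ratios of 0.809 with merged HA and 0.74 without.

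The lowest ratios were at ADAMTS9, ADAMTS7 and TIMP3. At ADAMTS9, a versican and aggrecan cleaving enzyme, 1 region of 4160 bp in WT cells stood against 322 bp at the TSS in ProMMP2-3xHA cells, a ratio of 0.0774, and a separate region of 1067 bp lay in intron 2 beyond the window. ADAMTS7, a protease of cartilage oligomeric matrix protein, had 167 bp against 1533 bp, a ratio of 0.109, and its window also held the TSS of MORF4L1. At TIMP3, which had HA in every replicate, 1137 bp stood against 3466 bp, a ratio of 0.328 at percentile 3.92 of all genes, and the ProMMP2-3xHA region began 52 bp downstream of the TSS while the WT region covered it. MMP2 and MMP19 were the members with wider H3K4me3 in ProMMP2-3xHA cells, and MMP19 had 719 against 510 bp, a ratio of 1.41.

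**Figure D4:**
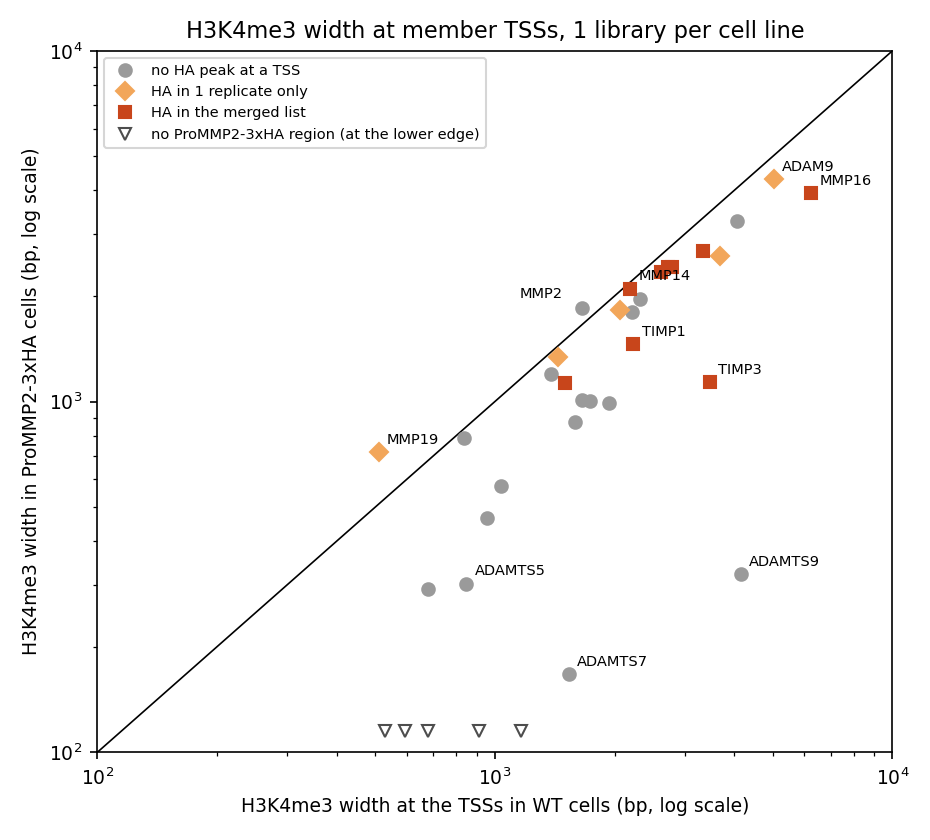
Width of H3K4me3 at the TSSs in ProMMP2-3xHA cells (vertical axis) against WT cells (horizontal axis), both in bp on log scales, for the 30 members with H3K4me3 in both lists, with the line of equal width, and open triangles at the lower edge for the 5 members without a ProMMP2-3xHA region. MMP2 and MMP19 lie above the line, the other 28 members lie below it, and ADAMTS9 and ADAMTS7 are the farthest from it.

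H3K4me3 in WT cells only was found at 5 members (7.46%, interval 2.47 to 16.6) and at 3.91% of all genes. They were ADAM11 with 1163 bp, ADAMTS16 with 910 bp, ADAMTS1 with 680 bp, ADAMTS20 with 593 bp and ADAMTS8 with 528 bp. No member had H3K4me3 in ProMMP2-3xHA cells only, against 0.268% of all genes. The WT regions of these 5 genes were short, at percentiles 3.46 to 17.5 of the widths of all genes in WT cells. ADAMTS1, a protease of proteoglycans such as versican, had its region at an alternative TSS, with the centre of the region 1877 bp downstream of the canonical TSS.

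The members with H3K4me3 in both lists and no HA peak of any list at a TSS numbered 16 (23.9%, interval 14.3 to 35.9), a share close to the 23.3% of all genes. ADAM12, ADAMTS17, MMP2, MMP25 and TIMP2 among them had HA peaks in the gene body only. They were ADAM12, ADAM21 and ADAM23, the ADAMTS genes 2, 5, 6, 7, 9, 15, 17 and 19, MMP2, MMP15, MMP17, MMP25, and TIMP2. Widths in ProMMP2-3xHA cells ran from 167 bp at ADAMTS7 to 3261 bp at ADAMTS6. MMP15, MMP17 and MMP25, which are membrane-type MMPs like MMP14 and MMP16, had 1008, 1806 and 575 bp in ProMMP2-3xHA cells and 1653, 2215 and 1038 bp in WT cells. ADAMTS5, an aggrecan cleaving enzyme of cartilage, had 303 and 847 bp. ADAM21 had its H3K4me3 (1197 and 1388 bp) at an alternative TSS, with the centre of the ProMMP2-3xHA region 260 bp from the TSS of COX16 and 35450 bp upstream of the canonical TSS of ADAM21, so the mark cannot be assigned to ADAM21.

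The MMP cluster on chromosome 11 held 9 of the 32 members without marks. The genes MMP7, MMP20, MMP27, MMP8, MMP10, MMP1, MMP3, MMP12 and MMP13 lie in 435223 bp at chr11:102391239-102826461, and none had HA or H3K4me3 within 1 kb of a TSS. The whole interval held 1 merged HA peak, at chr11:102617867-102618052, which overlapped no peak of any replicate, as the interval held no replicate HA peak. Its centre was 260 bp downstream of the 5′ end of WTAPP1, a pseudogene, and H3K4me3 was present there in both cell lines, in regions of 1025 bp (ProMMP2-3xHA) and 1345 bp (WT). In all, 4 H3K4me3 regions of ProMMP2-3xHA cells and 2 of WT cells lay in the interval.

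The members with and without marks also had different base compositions. Within 500 bp of the canonical TSS the median GC content was 61.3% for the 9 members with merged HA, 68.9% for the 26 members with H3K4me3 in either list and no merged HA, and 51.9% for the 32 with neither, against 61.2% over 20140 genes. The CpG ratio, which is the number of CG dinucleotides over the number that the C and G content would give, had medians of 0.734, 0.755 and 0.353 in these groups and 0.723 over all genes. The groups overlapped. TIMP1 had the lowest CpG ratio among the members with merged HA, 0.373, and some members without marks had GC-rich starts, up to a GC content of 78.3%. The 9 cluster genes had GC contents of 33.4 to 42.5% and CpG ratios of 0.0996 to 0.425.

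**Figure D5:**
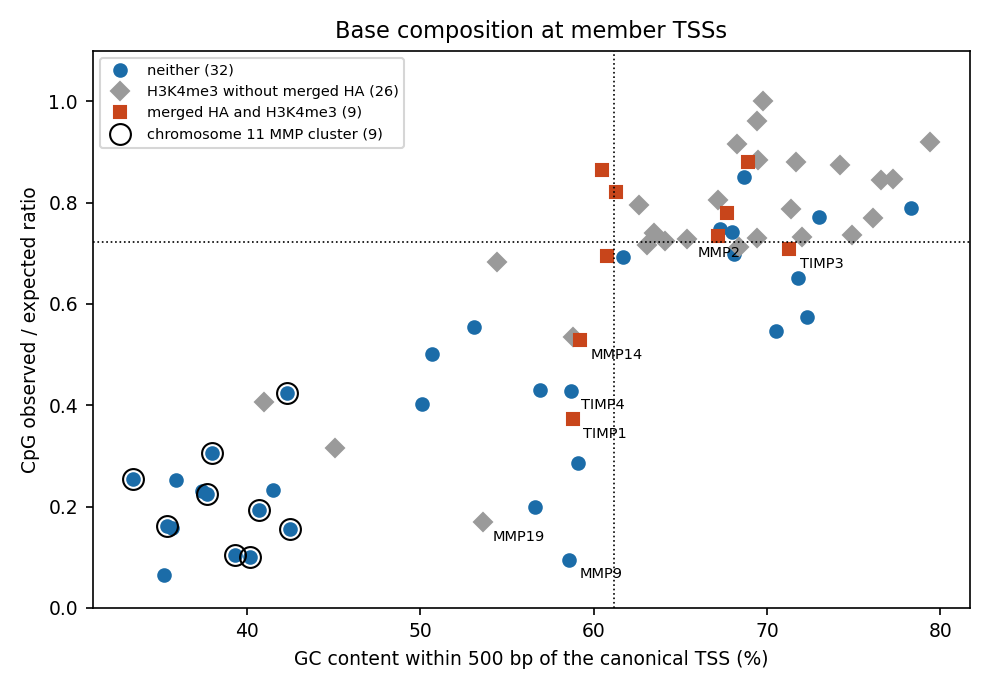
CpG observed to expected ratio (vertical axis) against GC content in percent (horizontal axis) within 500 bp of the canonical TSS for the 67 members, with symbols for the group by HA and H3K4me3, rings on the 9 genes of the chromosome 11 cluster, and dotted lines at the medians of all genes. All ringed genes lie at the lower left, and the members with merged HA have CpG ratios of 0.373 to 0.881.

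The letters of common promoter motifs were counted in the same groups. TGANTCA takes any base in the middle, so it counts more than the AP-1 site, which has C or G there. In the 200 bases before the canonical TSS, searched on both strands, TGANTCA was found at 11 members (16.4%) and at 3.74% of all genes. It was found at 9 of the 32 members without marks, at 2 of the 26 with H3K4me3 and no merged HA, and at none of the 9 with merged HA. The 2 were ADAMTS12 and MMP19, which had an HA peak at a TSS in replicate 3. TATAAA, a form of the TATA box, was found at 15 members (22.4%) and at 7.85% of all genes, at 10 of the 32 members without marks, at 5 of the 26 with H3K4me3 and no merged HA, and at none with merged HA. GGGCGG, the GC box bound by Sp1, was found at 8 of the 9 members with merged HA, at 20 of the 26 and at 12 of the 32, and at 56% of all genes. CCAAT was found at 20 members (29.9%) and at 30.3% of all genes. Of the 9 cluster genes, 7 held TGANTCA, 7 held TATAAA and 6 held both, and none held GGGCGG. Both motifs were found together at 138 of all genes (0.685%), 7 of them members, the other being MMP19. None of these motifs contains another, and a match in this window is no evidence of a bound factor.

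Away from the TSSs, 2 members had a merged HA peak in the gene body only (2.99%, interval 0.364 to 10.4), where 3.5% of all genes did. ADAMTS17, a protease linked to fibrillin microfibrils, had a merged region of 3120 bp in intron 13 at chr15:100651669-100654788. Peaks of replicates 1 and 2, with fold enrichments of 4.28 and 5.85, overlapped only the start of this region. They were 217 and 629 bp wide and ended at chr15:100651720 and chr15:100651844, so most of the merged region held no replicate peak. Intron 15 of ADAMTS17 held another peak of replicate 2 with 4.45. ADAMTS20, a versican protease of the developing skin, had a merged peak of 273 bp in intron 18 at chr12:43830448-43830720, with 5.36 and 8.22 in replicates 1 and 2. The ADAMTS20 value of replicate 2 was at percentile 82.5 of the TSS peaks of all genes. Neither place had H3K4me3 within 1 kb or a peak of replicate 3. Replicate peaks without a merged peak lay in the bodies of 10 members (14.9%, interval 7.4 to 25.7) and of 5.38% of all genes, and the members were also longer, with a median gene length of 48501 bp against 27219 bp. Whether length accounts for the larger share was not tested. Beside MMP2 they were ADAM9, ADAM12, ADAM19, ADAMTS13, ADAMTS16, MMP24, MMP24OS, MMP25 and TIMP2. The MMP25 body held peaks of replicate 1 (fold enrichment 3.98) and replicate 2 (5.07 and 4.01), of which the first and last overlapped, and the peak in MMP24 is the same as that in MMP24OS. The peak in ADAM19 lay 7 bp from the TSS of NIPAL4, and that in ADAMTS13 lay 295 bp from the TSS of REXO4.

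Partners and relatives of these enzymes gave a comparison from a list of 42 genes, such as plasminogen activators, proprotein convertases, partners of ADAM10 and ADAM17, ADAMTS-like proteins, astacin proteases and the synapsin genes that hold TIMP genes in their introns. Of these 42, 29 had H3K4me3 in ProMMP2-3xHA cells and 32 in WT cells, where 62.6 and 66.3% of all genes did. Merged HA was present at 17 (40.5%, against 31.6% of all genes), and all 17 had H3K4me3 in ProMMP2-3xHA cells. HA peaks of every replicate were present at 8 of the 42, a share close to the 18.6% of all genes. The 8 were PLAUR, BSG, THBS1, CAV1, RHBDF2, TSPAN14, TSPAN17 and ADAMTSL4. THBS1, the matrix protein thrombospondin 1, had fold enrichments of 5.37, 7.64 and 6.31, and BSG, the MMP inducer basigin, had 5.24, 8.08 and 4.7.

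Partners of ADAM17 and ADAM10 were among both the genes with and the genes without merged HA. RHBDF2 (iRhom2), which carries ADAM17 to the cell surface, had fold enrichments of 4.19, 6.07 and 6.18, and its relative RHBDF1 had 3.9 in replicate 1 only. FRMD8, which binds the iRhoms, had 5.37 in replicate 3 and no merged HA. Of the 6 tetraspanins that bind ADAM10, TSPAN5, TSPAN10, TSPAN14 and TSPAN17 had merged HA and TSPAN15 and TSPAN33 had no HA peak. TSPAN10 had a peak in replicate 3 only, with a fold enrichment of 3.97. TSPAN17 had the highest value, 9.62 in replicate 2, with 4.64 and 5.95 in replicates 1 and 3. The plasminogen activator PLAU and its receptor PLAUR, the inhibitor SERPINE2, the convertase PCSK5 and the procollagen protease BMP1 also had merged HA. Among these, PLAU and BMP1 had a peak in replicate 3 only, with fold enrichments of 6.32 and 7.19. The 3 synapsin genes carry TIMP genes in their introns, SYN1 with TIMP1, SYN2 with TIMP4 and SYN3 with TIMP3. SYN3 had a merged HA peak at its own TSS without a peak in any replicate, and SYN1 and SYN2 had no HA peak.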

How the data were processed

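HA and H3K4me3 nChIP-Seq was analysed from peak lists of 5 of the 6 samples and 1 merged HA list. According to the submitters' processing notes and the study's methods, the authors trimmed reads (Trim Galore 0.6.0), aligned them in pairs to hg19 (Bowtie2 2.3.5.1), kept mapping qualities of at least 30 (SAMtools 1.9), removed duplicates (Picard) and called peaks of at least 147 bp with MACS2 3.0.0a6 at a q-value of 0.05 against a control immunoprecipitation or input. The deposited HA replicate lists give for each narrow peak a score, a ratio (the fold enrichment of the summit) and −log10 values of p and q. In the deposited merged HA and H3K4me3 lists the authors had combined narrow and broad calls into intervals without values, so nearby calls form 1 region and widths depend on the calling.

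TSSs were those of protein coding transcripts with a complete 5′ end in GENCODE version 44 lifted to GRCh37, on chromosomes 1 to 22, X and Y. Lines that share an interval were 1 peak with its highest fold enrichment. Overlaps came from scripts in Python 3.11.15 (numpy 2.4.6, pandas 2.3.3) and were checked against bedtools 2.31.1, and intervals are 95% Clopper-Pearson (scipy 1.17.1). Fragments at a summit were recovered from the fold enrichment and the p-value for 94, 96.9 and 96.1% of summits (tolerance 0.01 fragments), a step tested on simulated data. With 1 to 3 libraries a group, no p-values were computed. Alternatives were other TSS definitions, windows, q-values and region widths and leaving out each replicate. The members, lists and rules were chosen with earlier results of these data known. Genes were named by rule: those with an HA peak at a TSS or a merged peak in the body, MMP2, MMP9, MMP14 and the TIMPs, those with H3K4me3 in 1 list or without HA, and related genes with merged HA. Other genes named were chosen after their values were seen. A related gene named by this rule is not reported here.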

Additional observations from a re-analysis of the deposited data

How the results depend on the processing

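Of 65 alternative values for 10 results, 59 stayed close to the value reported and 6 did not, taking 1.5 times as the limit for a count and the SD between replicates as the limit for a mean. Only 3 members had a merged peak that overlapped peaks of all replicates (ADAM17, MMP16 and TIMP3), against 9 reported. When a region had to cover a TSS itself, ProMMP2-3xHA H3K4me3 was found at 19 members and HA at a mean of 5.67 members a replicate. The shares of all genes under these alternatives are not given here, so the changed counts are not set against all genes. At q-values of 0.01 and 0.001, 2 members had a peak in every replicate, against 3. The members with a peak in every replicate kept ranged from 4 to 5 when a replicate was left out, with 5 without replicate 1 and 5 without replicate 2, against 3. The mean number a replicate then ranged from 7 to 9.5, the median fold enrichment from 5.14 to 5.97 and the median summit position from 26.25 to 56 bp. Measured to the canonical TSS, the summit position was 92.5 bp. Including transcripts with an incomplete 5′ end, an alternative added after the data were seen, gave 9, 30 and 35 members with merged HA and with H3K4me3 in ProMMP2-3xHA and WT cells. No paired analysis was possible because the groups share fewer than 2 replicate numbers. The H3K4me3 lists come from 1 library each with no recoverable depth, so an absent region is not shown to be an absent mark.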

Other observations

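Long noncoding genes named after members gave 9 further loci, and none had an HA peak within 1 kb of a TSS in any list. H3K4me3 was found at 4 of them. The shares over all long noncoding genes were not computed, so neither count can be read as particular to these loci. ADAMTS9-AS2 had 1067 bp in ProMMP2-3xHA cells and 4160 bp in WT cells, ADAMTS19-AS1 had 874 and 1593 bp, MMP25-AS1 had 861 and 1503 bp, and ADAMTS16-DT had 910 bp in WT cells only. The WT regions of ADAMTS9-AS2, ADAMTS19-AS1 and ADAMTS16-DT are those also counted at the TSSs of ADAMTS9, ADAMTS19 and ADAMTS16. MMP25-AS1 had a region of its own near the 3′ end of MMP25, so MMP25 and its antisense gene each had H3K4me3 at a separate start.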
